A study of Homo sapiens with 8 samples.

Results

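The human histone cluster genes are the gene names beginning with HIST1H, HIST2H, HIST3H or HIST4H, and they were taken from the array's annotation by that spelling alone, leaving out control spots. They comprised 85 probes and 69 gene names of 43317 on the array: 6 of histone H1, 17 of H2A, 19 of H2B, 13 of H3 and 14 of H4. In all, 63 of the 69 entered the tests. The other 6, HIST1H1T, HIST1H2AG, HIST1H2APS1, HIST1H2BA, HIST2H2BA and HIST2H2BF, had no probe well above background on both arrays of any group.

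Gene expression was measured in SAS cells, a line from a human squamous carcinoma of the tongue, on 8 one-colour arrays, 2 for each of 4 groups. Each group received 25 nM of a small RNA by lipid transfection: the miR-874-3p mimic, the miR-210-3p mimic, the miR-629-3p mimic or a negative control (NC). All groups shared a medium containing puromycin, and the study's text names the cells given the mimics as SAS/GFP, a derivative that carries green fluorescent protein. The study asked which transcripts change for miRNAs linked to cisplatin resistance, and the labels name no cisplatin for these samples. The labels give 48 h of culture after transfection, whereas the methods give a shorter time. The 2 samples of a group are not said to come from separate cultures, so p-values measure only the spread between these samples, which may be technical.

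Replication-dependent histone genes lie in clusters and are transcribed mainly in the S phase, when new DNA must be packed. Their mRNAs carry no poly(A) tail in cycling cells. They end instead at a short stem-loop that the stem-loop binding protein SLBP holds, and transcription is driven by NPAT together with factors for each histone type. Some of these genes also give polyadenylated transcripts, chiefly in cells that have stopped dividing. The labelling kit primes RNA with oligo-dT, so a level here depends on how much of each transcript that primer copied, and how much was tailed was not measured.

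The mature miRNAs are shown because the groups are defined by them, with the seed (bases 2 to 8) in capitals and sequences from RefSeq (GRCh38.p14).
miR-629-3p: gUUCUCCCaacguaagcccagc
miR-210-3p: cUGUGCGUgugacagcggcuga
miR-874-3p: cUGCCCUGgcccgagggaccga
The seeds all differ. The reverse complement of a seed was present in 0 of the 85 histone probes for miR-629-3p, 0 for miR-210-3p and 1, a probe of HIST1H4G, for miR-874-3p, against 0.747%, 0.131% and 0.387% of the 58201 probes of the array. A probe covers only 60 bases, so the rest of each mRNA was not searched.

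The stem-loop could be read inside 4 of the 85 histone probes, a hairpin whose arms of 6 bases pair fully around the loop TTTC, against 11 of all 58201 probes. These windows are shown because they mark where a replication-dependent histone mRNA ends, with the arms in capitals.
HIST1H2AI: aaccaaaGGCTCTtttcAGAGCCacct
HIST1H2BE: acccaaaGGCTCTtttcAGAGCCactc
HIST1H3H: acccaaaGGCTCTtttcAGAGCCaccc
HIST2H3A: tccaaaaGGCTCTtttcAGAGCCacc
The arms were identical in the 4 genes, which belong to 3 histone types.

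The 250 bases before the annotated start were available for 58 of the 63 genes (RefSeq, GRCh38.p14) and were searched on both strands for the CCAAT box, for the TATA element TATAAA, and for the octamer ATTTGCAT, the element bound by the POU factor OCT1 in H2B promoters. The octamer was found in 12 of 16 H2B and 10 of 14 H2A promoters, in 1 of 11 H3 promoters and in 0 of 5 H1 and 0 of 12 H4 promoters, against 1.66% of all 27305 promoters. Many H2A and H2B genes start back to back, so their windows can overlap. CCAAT was present in every H1, H2A, H2B and H3 promoter searched, in 3 of 12 H4 promoters, and in 33% of all promoters. TATAAA was present in 39 of the 58, against 11.1% of all promoters. The promoters of HIST1H2BF (chr6:26199266-26199515, plus strand) and HIST1H4J (chr6:27823842-27824091, plus strand) are shown, with the motifs in capitals. They were picked by their values with miR-629-3p. HIST1H2BF fell most among the H2B genes, and HIST1H4J had the highest log2 fold change among the H4 genes.
HIST1H2BF: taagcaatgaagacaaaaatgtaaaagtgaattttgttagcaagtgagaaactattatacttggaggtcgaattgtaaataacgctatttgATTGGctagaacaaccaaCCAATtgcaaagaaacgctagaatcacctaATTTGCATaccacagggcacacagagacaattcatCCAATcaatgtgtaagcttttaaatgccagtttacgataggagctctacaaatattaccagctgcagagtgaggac
HIST1H4J: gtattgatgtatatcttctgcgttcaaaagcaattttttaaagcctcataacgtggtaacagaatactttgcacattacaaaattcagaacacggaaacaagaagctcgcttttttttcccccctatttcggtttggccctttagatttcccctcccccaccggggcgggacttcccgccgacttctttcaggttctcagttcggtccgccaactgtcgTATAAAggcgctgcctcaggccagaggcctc
The octamer and 3 copies of CCAAT (read as ATTGG on the other strand) stand in the H2B window. The H4 window holds TATAAA alone. A match is a run of letters and not a measured binding site. HIST3H2BB, HIST1H2BL and HIST1H2AI also fell with miR-629-3p at an adjusted p under 0.05 (limma), and their windows hold no octamer. The other H2B genes that fell had it. The 10 H2A genes with the octamer did not pass. Whether a motif goes with a change was not tested.

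Levels are log2 processed signals minus the 75th percentile of the same array, so a level of 0 is the brightness of that percentile and differences are log2 fold changes. Between 24338 and 28994 of the 58201 probes were well above background per array, most with miR-629-3p and fewest in NC, and 0 spots were saturated. The number of arrays, 2 per group, limits the precision. All 10 squamous epithelial markers were well above background on every array, with summed linear levels of 518 and 521 under miR-629-3p, 458 and 459 under miR-210-3p, 561 and 633 under miR-874-3p and 609 and 645 in NC. Of the leukocyte, endothelial and fibroblast markers, 1 of 4, 3 of 4 and 2 of 5 passed the filter. Those left out included CD3E, ITGAM, KDR, COL1A2, DCN and LUM. The summed levels of these 3 lists reached at most 1.03, 2.75 and 1.97 on any array. The endothelial sum peaked under miR-629-3p, and the fibroblast sum under miR-210-3p. All 3 endothelial markers tested exceeded NC under miR-629-3p (median log2 fold change 0.90), and 1 passed an adjusted p under 0.05 (limma). Both fibroblast markers tested exceeded NC under miR-210-3p (median 1.70), and 1 passed. The part of these values in the results below was not tested. One row of the slide held the arrays of miR-210-3p and miR-629-3p, the other row those of NC and miR-874-3p.

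Histone levels were lower with miR-629-3p than in NC for most of the cluster genes, by a modest amount. The median log2 fold change of the 63 genes was -0.34, a fold of 0.792, against 0.02 for all 21283 genes tested and -0.03 for the 3906 genes whose mean signal lay within the histone genes' interquartile range. In total 19 of the 63 fell at an adjusted p under 0.05 (limma, Benjamini-Hochberg over all genes), where 7.47% of all genes did, and 0 rose, where 9.28% of all genes did. Both miR-629-3p arrays lay below both NC arrays for 47 of the 63 genes, against 30.5% of all genes. At an unadjusted p under 0.05, 36 were lower (15.5% of all genes) and 5 higher (18.2% of all genes). None reached an unadjusted p under 0.05 together with a 2-fold change, a rule that 5.26% of all genes met in either direction. The methods' t-test gave 18 genes at an unadjusted p under 0.05 in either direction, a share near the 27.2% of all genes, and again 0 at the 2-fold rule (3.90% of all genes).

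The number that passed depended on single arrays. Without 1 array it was 0 (miR-629-3p replicate 1), 2 (miR-629-3p replicate 2), 5 (either miR-210-3p array), 9 (NC replicate 1) or 3 (NC replicate 2), and 24 or 22 without either miR-874-3p array. The median stayed between -0.40 and -0.26. These are bulk samples, in which fewer cells in S phase and less histone RNA per cell cannot be told apart.

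With miR-210-3p the cluster as a whole was level with NC. The median log2 fold change was 0.04, against 0.05 for all genes and for the genes of like signal. At an adjusted p under 0.05, 2 genes rose, HIST1H3A and HIST1H4G (3.85% of all genes rose), and 0 fell (2.20% of all genes). Both arrays lay above both NC arrays for 20 of the 63 genes (37.4% of all genes) and below them for 6 (24.1%). An unadjusted p under 0.05 was reached by 7 genes on the higher side (16.5% of all genes) and by 1, HIST1H2BE, on the lower side (9.50%). By limma 0 genes met the 2-fold rule, which 3.14% of all genes met, and the t-test gave 5 at an unadjusted p under 0.05 (22.4% of all genes) and 0 at that rule (1.94%). The 2 calls were 0 without miR-210-3p replicate 1, NC replicate 1 or either miR-629-3p array, and 1 without miR-210-3p replicate 2 or NC replicate 2.

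With miR-874-3p nearly every histone gene had a lower mean than in NC, and none passed the adjusted threshold. The median was -0.35, a fold of 0.784, against -0.01 for all genes and -0.04 for genes of like signal. The log2 fold change was below 0 in 60 of the 63 genes, and both arrays lay below both NC arrays in 53, against 23.2% of all genes. By limma 44 genes were lower at an unadjusted p under 0.05 (8.52% of all genes) and 0 higher (7.86%), but 0 passed an adjusted p under 0.05 in either direction, where only 0.207% of all genes fell and 0.216% rose, and 0 met the 2-fold rule (2.02% of all genes). The t-test gave 9 at an unadjusted p under 0.05, where 9.00% of all genes passed. Without NC replicate 2 or miR-874-3p replicate 2 the 44 became 21 or 22. The 0 adjusted calls became 4 without miR-874-3p replicate 1, 2 without its replicate 2 and 1 without NC replicate 2. Since the 3 comparisons share the NC arrays, a high or low NC array moves all 3 together.

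Row and group cannot be told apart when NC is set against miR-210-3p or miR-629-3p. Within a row, miR-874-3p against NC gave the median of -0.35 above, and miR-629-3p against miR-210-3p gave -0.38, against -0.02 for all genes.

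Per array, the median of the 63 genes stood -0.34 and -0.34 from the NC mean with miR-629-3p, 0.06 and 0.05 under miR-210-3p, -0.26 and -0.44 under miR-874-3p, and -0.08 and 0.08 in the NC arrays themselves. All 4 arrays of miR-874-3p and miR-629-3p were below both NC arrays, and the miR-210-3p arrays lay between them. The medians of all genes stayed between -0.02 and 0.06.

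**Figure D1:**
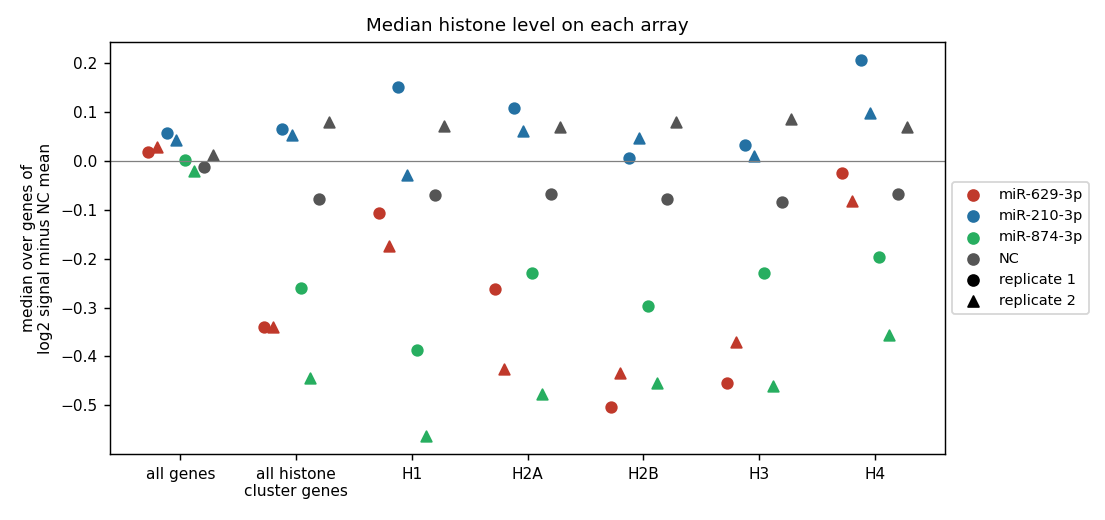
Median over genes of the log2 signal minus the NC mean (vertical axis), for all genes tested, all 63 histone cluster genes and each histone type, with 1 point per array coloured by group and shaped by replicate. The miR-629-3p and miR-874-3p points lie below the NC points in every histone type except H4, where miR-629-3p replicate 1 (-0.02) is above NC replicate 1 (-0.07).

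Across the 4 groups, 25 of the 63 genes differed by the limma F test at an adjusted p under 0.05, where 25.2% of all genes did. Of the 4 group means, the lowest was with miR-629-3p in 30 genes and with miR-874-3p in 30, and the highest was with miR-210-3p in 39 and in NC in 21. Among all genes the lowest was with miR-629-3p in 29.9% and with miR-874-3p in 24.1%, and the highest was with miR-210-3p in 32.9% and in NC in 17.7%.

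**Figure D2:**
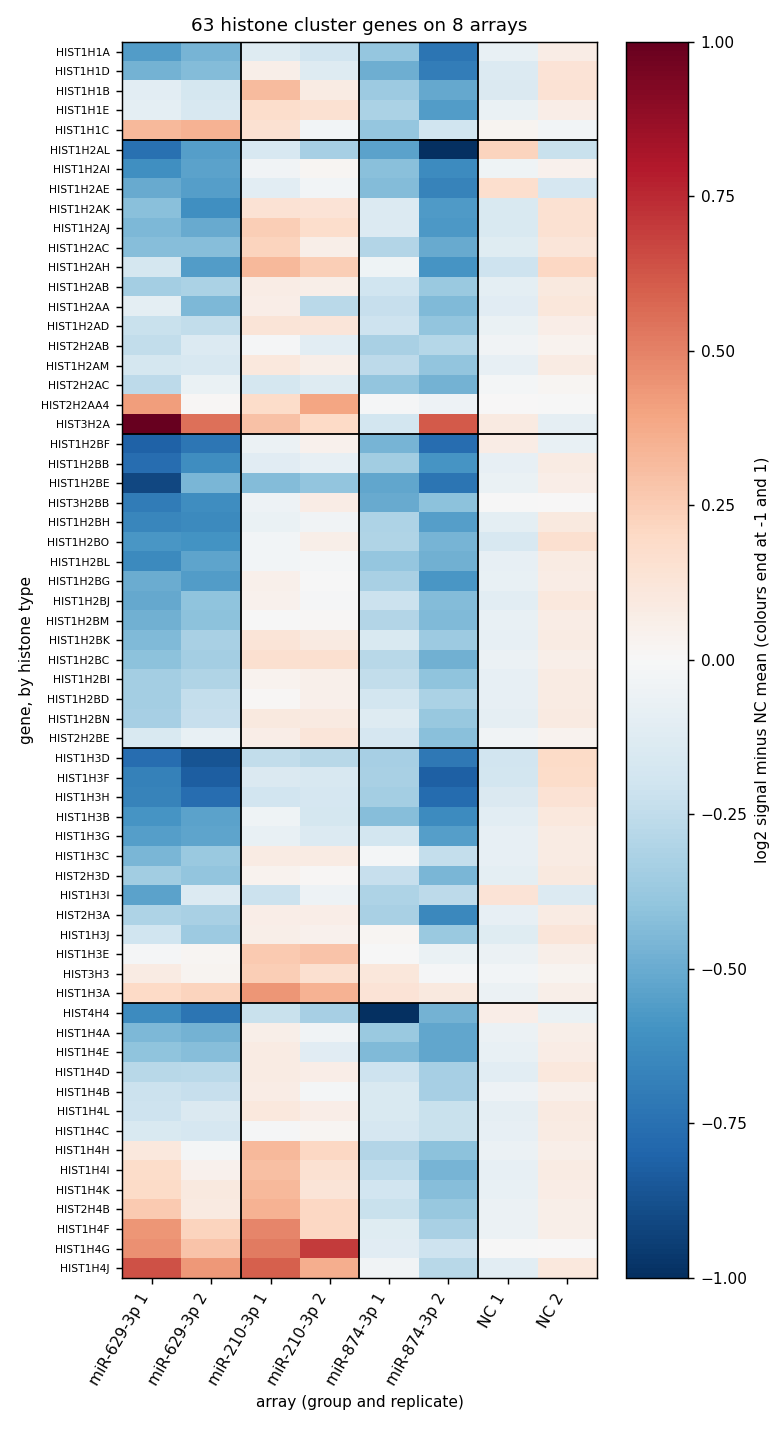
Heat map of the 63 histone cluster genes (rows, by histone type and then by the miR-629-3p change) on the 8 arrays (columns), with colour for the log2 signal minus the gene's NC mean. The H2B block is lower throughout the miR-629-3p columns, and the lowest rows of the H4 block are higher there and with miR-210-3p.

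The histone types were described one by one. In the nucleosome core, H3 and H4 form the central tetramer and H2A and H2B form the dimers that flank it, while H1 binds the linker DNA. With miR-629-3p the median log2 fold change was -0.14 for H1, -0.33 for H2A, -0.49 for H2B, -0.37 for H3 and -0.06 for H4. The genes that fell were 10 of 16 of H2B, 5 of 13 of H3, 2 of 14 of H4, 1 of 15 of H2A and 1 of 5 of H1. The threshold was an adjusted p under 0.05, which 7.47% of all genes passed on the lower side. The H2A count is near that share. With miR-874-3p the medians were -0.44, -0.34, -0.38, -0.34 and -0.29 in the same order, and with miR-210-3p they were 0.06, 0.08, 0.02, 0.02 and 0.16. Whether one type differed from another was not tested.

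**Figure D3:**
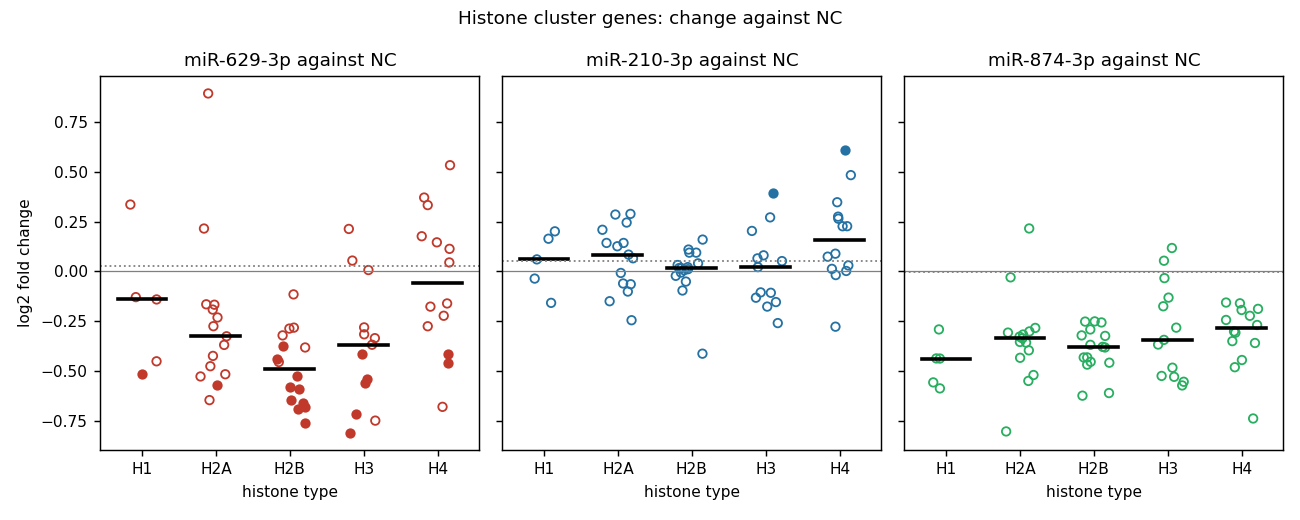
Log2 fold change against NC (vertical axis) of each of the 63 genes by histone type, with 1 panel per miRNA, a filled point for an adjusted p under 0.05, a black bar for the type's median and a dotted line for the median of all genes. All 16 H2B points lie below 0 with miR-629-3p and with miR-874-3p.

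Among the H2B genes, HIST3H2BB had the smallest adjusted p. It measured -0.47 and -0.40 under miR-629-3p, 0.18 and 0.30 under miR-210-3p, -0.28 and -0.19 under miR-874-3p, and 0.22 and 0.23 in NC. The miR-629-3p and miR-874-3p arrays did not overlap the NC arrays. It fell by 0.66 ± 0.08 (SE, log2) with miR-629-3p (limma adjusted p = 0.00873), and its difference was 0.01 with miR-210-3p (adjusted p = 0.949) and -0.46 with miR-874-3p (adjusted p = 0.0893). Its mean with miR-629-3p was also lower than with miR-210-3p, by -0.67 (adjusted p = 0.00635), and the miR-210-3p mean was higher than that with miR-874-3p by 0.47 (adjusted p = 0.0268).

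HIST1H2BF (hg19 probe position chr6:26200153-26200212) measured 1.07 and 1.16 under miR-629-3p, 1.82 and 1.92 under miR-210-3p, 1.42 and 1.12 under miR-874-3p, and 1.95 and 1.80 in NC. The change with miR-629-3p was -0.76 ± 0.12, a fold of 0.589 (adjusted p = 0.0164). HIST1H2BL, the H2B gene with the brightest probe, measured 4.44 and 4.54, 5.04 and 5.06, 4.69 and 4.59, and 4.99 and 5.15 in the same order of groups, a change of -0.58 ± 0.09 with miR-629-3p (adjusted p = 0.0148). In both genes the lowest array belonged to miR-629-3p, and the miR-210-3p arrays lay within the NC range.

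The other H2B genes that fell with miR-629-3p were HIST1H2BB (-0.69), HIST1H2BE (-0.68), HIST1H2BH (-0.64), HIST1H2BO (-0.59), HIST1H2BG (-0.53), HIST1H2BM (-0.44) and HIST1H2BC (-0.37), with adjusted p from 0.0177 to 0.0497. Set against miR-210-3p directly, HIST1H2BE differed by -0.27 (adjusted p = 0.292), and the other H2B genes that fell had adjusted p from 0.00635 to 0.0242. HIST1H2BE measured 0.76 and 1.21 under miR-629-3p and 1.23 and 1.27 under miR-210-3p, against 1.60 and 1.73 in NC. Between miR-629-3p and miR-874-3p the differences of these genes ran from -0.22 to 0.00, with adjusted p from 0.145 to 0.982. The 6 H2B genes that did not pass against NC ran from -0.46 to -0.12.

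Among the H3 genes, HIST1H3D had the lowest log2 fold change with miR-629-3p. It measured 5.85 and 5.75 there, 6.36 and 6.33 under miR-210-3p, 6.27 and 5.89 under miR-874-3p, and 6.42 and 6.80 in NC. The change was -0.81 ± 0.17, a fold of 0.570 (adjusted p = 0.0325), and the miR-629-3p arrays were the lowest of the 8. HIST1H3H (-0.72), HIST1H3B (-0.56), HIST1H3G (-0.54) and HIST1H3C (-0.41) also fell, with adjusted p from 0.0287 to 0.0491. Of these 5, HIST1H3C and HIST1H3B were lower than with miR-210-3p as well (adjusted p = 0.0255 and 0.0409).

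HIST1H3A went the other way. It measured 5.53 and 5.55 under miR-629-3p, 5.77 and 5.68 under miR-210-3p, 5.46 and 5.43 under miR-874-3p, and 5.27 and 5.39 in NC. Every treated array was above both NC arrays, and the gene rose by 0.39 ± 0.08 with miR-210-3p (adjusted p = 0.0451), with 0.21 for miR-629-3p (adjusted p = 0.113) and 0.12 for miR-874-3p (adjusted p = 0.494). HIST3H3, a testis-associated H3 gene and the H3 gene with the brightest probe, stayed within 8.31 and 8.58 on all arrays, and its largest difference was 0.20 with miR-210-3p (adjusted p = 0.180).

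In H2A, HIST1H2AI was the gene that fell with miR-629-3p. The probe with the stem-loop shown above measured 2.63 and 2.70 under miR-629-3p, 3.20 and 3.26 under miR-210-3p, 2.82 and 2.61 under miR-874-3p, and 3.20 and 3.28 in NC, a change of -0.57 ± 0.09 (adjusted p = 0.0174). The miR-874-3p difference was -0.52 (adjusted p = 0.0974), and the miR-210-3p mean exceeded that of miR-874-3p by 0.51 (adjusted p = 0.0328). HIST1H2AJ, the H2A gene with the brightest probe, measured 6.86 and 6.81, 7.55 and 7.48, 7.17 and 6.73, and 7.16 and 7.46 in the order above. Its lower level with miR-629-3p did not pass against NC (-0.48, adjusted p = 0.116) and did against miR-210-3p (-0.69, adjusted p = 0.0409).

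HIST3H2A had the highest log2 fold change of any member with miR-629-3p and is named here after its values were seen. It measured -0.45 and -1.13 there and -1.59 and -1.78 in NC, a difference of 0.89 ± 0.32 that did not pass (adjusted p = 0.117). Its neighbour on chromosome 1, HIST3H2BB, fell.

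In H1, HIST1H1A fell with miR-629-3p. It measured 5.09 and 5.18 there, 5.52 and 5.46 under miR-210-3p, 5.26 and 4.92 under miR-874-3p, and 5.58 and 5.72 in NC, a change of -0.51 ± 0.13 (adjusted p = 0.0499). HIST1H1C, the H1 gene with the brightest probe, measured 6.11 and 6.14, 5.94 and 5.76, 5.41 and 5.60, and 5.82 and 5.76 in the same order. Its mean differed from NC by 0.34 with miR-629-3p (adjusted p = 0.077) and by -0.29 with miR-874-3p (adjusted p = 0.249). The difference between these miRNAs, 0.63, passed the test (adjusted p = 0.016).

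Among the H4 genes, HIST1H4A and HIST1H4E fell with miR-629-3p, by 0.46 ± 0.09 (adjusted p = 0.0237) and by 0.42 ± 0.10 (adjusted p = 0.0426). HIST1H4A measured 3.85 and 3.83 under miR-629-3p against 4.25 and 4.36 in NC, and 3.93 and 3.78 under miR-874-3p. HIST1H4C, the H4 gene with the brightest probe, measured 10.43 and 10.42 under miR-629-3p, 10.57 and 10.60 under miR-210-3p, 10.42 and 10.37 under miR-874-3p, and 10.51 and 10.67 in NC. The differences of this probe from NC, between -0.19 and 0.00, did not pass. A dimmer probe of HIST1H4C measured 2.74 and 2.77 under miR-629-3p against 3.03 and 3.15 in NC, a difference of -0.33.

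HIST1H4G rose with miR-210-3p. It measured -1.50 and -1.68 under miR-629-3p, -1.44 and -1.26 under miR-210-3p, -2.07 and -2.17 under miR-874-3p, and -1.96 in each NC array. The rise was 0.61 ± 0.10 (adjusted p = 0.033), and the miR-629-3p difference of 0.37 did not pass (adjusted p = 0.0601). Against miR-874-3p the miR-210-3p mean was higher by 0.77 (adjusted p = 0.0153) and the miR-629-3p mean by 0.53 (adjusted p = 0.0242). HIST1H4J, named after its values were seen, measured 6.12 and 5.91, 6.08 and 5.85, 5.44 and 5.20, and 5.37 and 5.59 in the same order of groups. Its difference was 0.53 with miR-629-3p (adjusted p = 0.0613) and 0.48 with miR-210-3p (adjusted p = 0.112).

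Of the 14 H4 probes used, 5 share a stretch of 15 bases that no other probe on the array holds. It is shown in capitals in 30 bases of each probe, because these 5 genes had like values that differed in sign from most other H4 genes with miR-629-3p.
HIST1H4F: gtgttcttAAGGTGTTCCTGGAGaatgtga
HIST1H4H: gttctgAAGGTGTTCCTGGAGaacgtgatt
HIST1H4I: cggagtgttgAAGGTGTTCCTGGAGaacgt
HIST1H4K: gggtgctgAAGGTGTTCCTGGAGaacgtga
HIST2H4B: gtgtgctgAAGGTGTTCCTGGAGaatgtga
With miR-629-3p the 5 ran from 0.04 to 0.33, median 0.15, and 2 of the other 9 H4 genes, HIST1H4G and HIST1H4J, were above 0, with a median of -0.22 over the 9. With miR-210-3p the medians were 0.26 and 0.03, and with miR-874-3p they were -0.31 and -0.24. None of the 5 passed the test against NC. The grouping was made after the values were seen, and the probes may bind each other's transcripts, so these are not 5 independent measurements. Elsewhere, 4 pairs of histone probes were identical at 50 or more of 60 bases, at most 53 (HIST1H2AD and HIST1H2AK), and 6 probes carried accessions of several genes, among them HIST1H2BK, HIST1H4K and HIST2H4B.

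For genes with more than 1 probe, the probes could be set side by side. HIST1H2AC encodes an H2A whose locus also yields a longer transcript, and 1 of its 3 probes lies 14301 bases beyond the others (hg19 chr6:26138822-26138881 against chr6:26124461-26124520). HIST1H4H likewise has a probe 4151 bases from the other (chr6:26281286-26281345 against chr6:26285497-26285556, minus strand). The middle 30 bases of each are shown because these 2 distal probes had the largest differences of all histone probes with miR-629-3p, with AATAAA, the commonest polyadenylation signal, in capitals.
HIST1H2AC gene probe: aagcaaggaggcaaagctcgcgccaaagcg
HIST1H2AC distal probe: attatattttatgtaacctgtccactgttg
HIST1H4H gene probe: ctggagaacgtgattcgtgacgctgtcact
HIST1H4H distal probe: ccacagatttccAATAAAaggtgAATAAAa
AATAAA was present in 6 of the 85 histone probes and in 7.85% of all probes. The annotation places the distal probes under these gene names, and which transcript they detect was not tested.

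The HIST1H2AC distal probe measured 2.62 and 2.50 under miR-629-3p, 0.54 and 0.60 under miR-210-3p, -0.03 and 1.28 under miR-874-3p, and 0.09 and -1.01 in NC. Both miR-629-3p arrays were above the other 6, and the NC and miR-874-3p arrays each differed by more than 1 between replicates. In the fit of all 27303 probes it rose by 3.02 ± 0.51 with miR-629-3p (limma adjusted p = 0.0196), with 1.03 for miR-210-3p (adjusted p = 0.272) and 1.09 for miR-874-3p (adjusted p = 0.373). It also exceeded miR-210-3p, by 1.99 (adjusted p = 0.0454), and the difference from miR-874-3p, 1.93, did not pass (adjusted p = 0.0596). The 2 probes at the gene itself gave -0.42 (adjusted p = 0.0721) and -0.32 (adjusted p = 0.149) with miR-629-3p. The gene probe used in the tests measured 3.04 and 3.04 under miR-629-3p against 3.34 and 3.58 in NC.

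The HIST1H4H distal probe measured -1.40 and -1.35 under miR-629-3p, -2.75 and -3.33 under miR-210-3p, -3.32 and -2.40 under miR-874-3p, and -4.83 and -4.84 in NC. It was well above background on both miR-629-3p arrays, on 1 of 2 arrays of miR-874-3p, likewise of miR-210-3p, and on no NC array. A difference therefore has only a bound, and the level was at least 2.74-fold higher with miR-629-3p than the dimmest signal well above background on the NC arrays. The limma adjusted p of 0.00656 belongs to the measured values and does not test this bound. The probe passed the filter only through the miR-629-3p arrays, where it is high, so this p-value is no support. The gene probe, 5.11 and 4.99 under miR-629-3p against 4.95 and 5.06 in NC, differed by 0.04 (adjusted p = 0.783). By the 2-fold rule at the probe level, 2 histone probes were called with miR-629-3p, both of these, where 5.33% of all probes were. The HIST1H4H call among them rests on NC values that are not well above background. The HIST1H4H distal probe alone was called with miR-210-3p (3.20% of all probes) and with miR-874-3p (2.01%), and both those calls rest on signals not well above background.

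**Figure D4:**
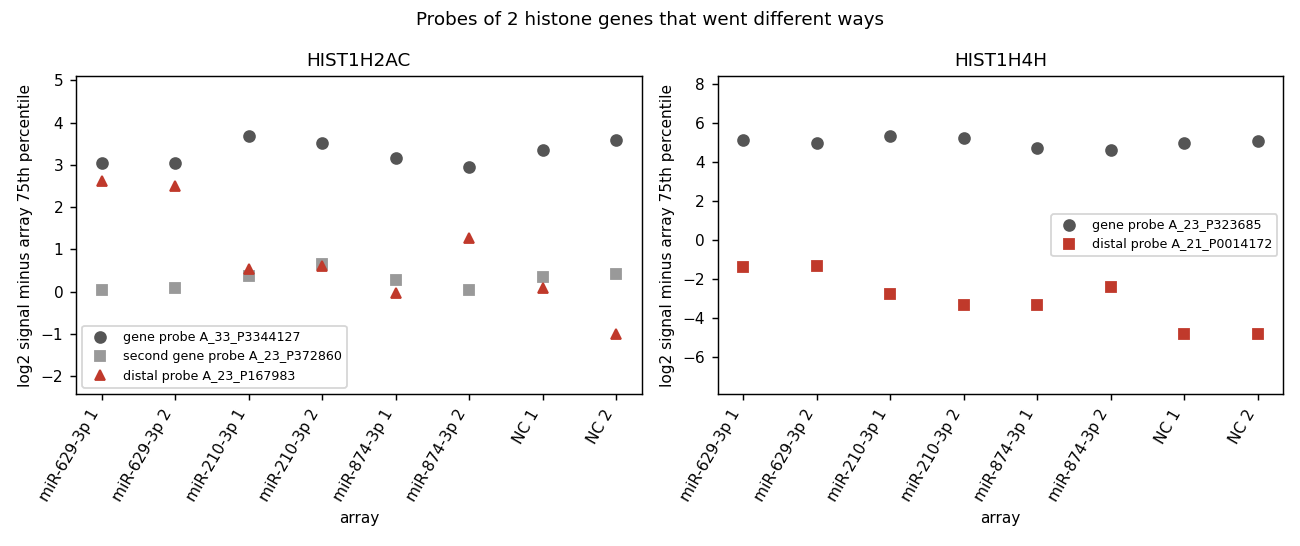
Log2 level (vertical axis) of each probe of HIST1H2AC and HIST1H4H on the 8 arrays (horizontal axis), with 1 marker shape per probe. The distal probes (red) are highest on the 2 miR-629-3p arrays, at 2.62 and 2.50 for HIST1H2AC and -1.40 and -1.35 for HIST1H4H, while the gene probes stay within 1 unit; the NC values of the HIST1H4H distal probe are not well above background.

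Further distal probes were near background. HIST1H2BK has a probe 8186 bases from the one used, well above background on 1 array, and HIST2H2BE has one 977 bases away, well above background on 0 arrays. For HIST1H4L the probes disagreed in the other way: the brighter gave -0.18 with miR-629-3p (adjusted p = 0.227) and the dimmer -0.62 (adjusted p = 0.0383). For HIST1H2AI, HIST1H3H and HIST1H4A the dimmer probes gave -0.74, -0.65 and -0.58, near the brighter ones in direction, without passing the test (adjusted p = 0.0511, 0.168 and 0.0589).

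By position, 52 of the 63 genes belong to the large cluster on chromosome 6, 7 to the HIST2 and 3 to the HIST3 cluster on chromosome 1, and HIST4H4 lies on chromosome 12. The genes that fell with miR-629-3p numbered 18 of the 52, 0 of the 7, 1 of the 3 and 0 of the 1. Of all genes, 7.47% fell at an adjusted p under 0.05. The medians in the same order of clusters were -0.38, -0.17, 0.05 and -0.68. With miR-874-3p the medians were -0.36, -0.31, 0.05 and -0.74. HIST4H4, the lone gene of its cluster, did not pass in either comparison (adjusted p = 0.0544 and 0.148).

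Genes that serve histone supply were described by the same fit. Of 15 genes of histone transcription, 1 rose and 1 fell with miR-629-3p at an adjusted p under 0.05, with a list median of 0.02. These counts are near the shares of all genes, of which 9.28% rose and 7.47% fell. E2F2, an E2F factor of the G1 to S transition, rose by 0.75 (adjusted p = 0.00547) and POU2F1, which encodes OCT1, fell by 0.31 (adjusted p = 0.0434). NPAT, the shared activator of histone genes, differed by 0.12 (adjusted p = 0.664). With miR-210-3p 2 rose (3.85% of all genes did), CDC25A (0.56, adjusted p = 0.0499) and E2F1 (0.42, adjusted p = 0.0451), and the median was 0.18. With miR-874-3p CCNE1, the cyclin E whose kinase phosphorylates NPAT, fell from 3.81 and 3.86 in NC to 2.87 and 2.88, a change of -0.95 (adjusted p = 0.0122), and the median was -0.10.

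Of 18 tested genes of histone mRNA 3′ end processing and decay, 2 rose and 1 fell with miR-629-3p, with a median of 0.01. These counts too are near the shares of all genes (9.28% rose and 7.47% fell). UPF1, the helicase that joins SLBP in histone mRNA decay, rose by 0.34 (adjusted p = 0.0236), CDK9 rose by 0.31 (adjusted p = 0.045), and SYMPK, the symplekin scaffold of the cleavage complex, fell by 0.41 (adjusted p = 0.0289). SLBP itself measured 4.72 and 4.81 under miR-629-3p, 5.15 and 5.17 under miR-210-3p, 5.03 and 4.87 under miR-874-3p, and 4.93 and 5.01 in NC, and its difference of -0.21 with miR-629-3p did not pass (adjusted p = 0.155). In the miR-874-3p and miR-210-3p comparisons 0 genes of the list passed an adjusted p under 0.05, and the medians were -0.02 and 0.18.

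Of 23 histone chaperones and importers, 5 fell with miR-629-3p (7.47% of all genes did) and 0 rose (9.28% of all genes did). The 5 were ANP32E (-0.53), MMS22L (-0.52), IPO4 (-0.46), SUPT16H (-0.43) and NAP1L4 (-0.36). SUPT16H, a subunit of FACT, also fell with miR-210-3p (-0.47, adjusted p = 0.0372). The list medians were -0.07, 0.02 and -0.15. The replication-independent histone genes, whose mRNAs are polyadenylated, had a median of -0.33 with miR-629-3p over 13 genes, close to that of the cluster genes. In that list CENPA, the centromeric H3 (-0.71, adjusted p = 0.00795), H1F0, the linker histone of resting cells (-0.80, adjusted p = 0.00805), and H2AFJ (-0.33, adjusted p = 0.0384) fell. At an adjusted p under 0.05 these were 3 of the 13, where 7.47% of all genes fell, and 0 rose, where 9.28% of all genes did. The 13 ran from -1.27, a gene that did not pass the adjusted threshold, to 0.33. At an unadjusted p under 0.05 by limma, 8 were lower (15.5% of all genes) and 2 higher (18.2%). H2AFY, which encodes macroH2A, fell by 0.40 with miR-210-3p (adjusted p = 0.0409). The medians were -0.20 for miR-874-3p and -0.01 for miR-210-3p.

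S phase genes were lower with miR-629-3p as well. Of 26, 10 fell at an adjusted p under 0.05 (7.47% of all genes did) and 0 rose (9.28% of all genes did). The median was -0.33 against 0.02 over all genes. CCNA2, cyclin A2, fell by 0.65 (adjusted p = 0.0187) and the replicative helicase genes MCM2 (-0.50), MCM7 (-0.49) and MCM6 (-0.40) fell as well. With miR-210-3p 2 of the 26 rose (3.85% of all genes did), CLSPN (0.45) and POLA1 (0.32), and the median was 0.07. With miR-874-3p 0 passed and the median was -0.13, nearer to 0 than the histone genes' -0.35.

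Of 10 cell cycle inhibitors, CDKN1B (p27) rose by 0.51 (adjusted p = 0.0332) and CDKN2D (p19) by 0.53 (adjusted p = 0.0421) with miR-629-3p, and RBL1 (p107) fell by 0.67 (adjusted p = 0.0353). Of all genes tested, 9.28% rose and 7.47% fell at an adjusted p under 0.05. CDKN1A (p21) measured -0.14 and -0.56 there, against -1.31 and -0.96 in NC, a difference of 0.79 that did not pass (adjusted p = 0.0509). The list median was 0.52, and it was 0.11 for miR-210-3p and -0.14 in the miR-874-3p comparison, where 0 passed.

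**Figure D5:**
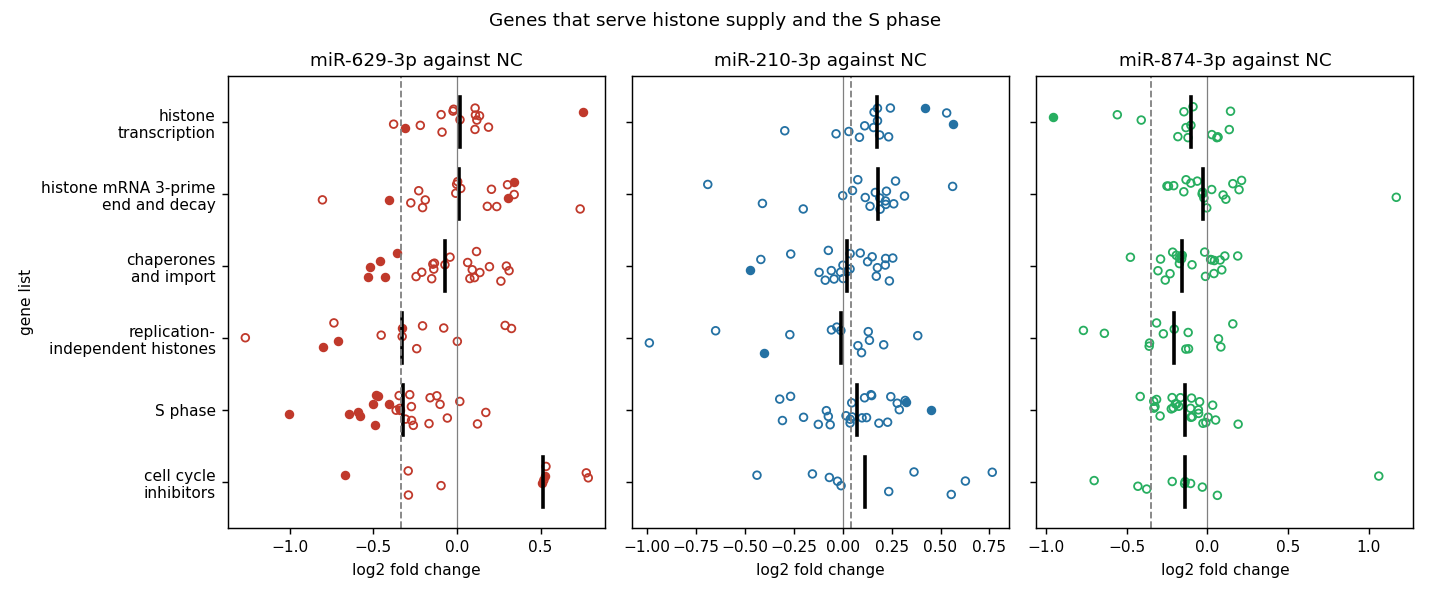
Log2 fold change against NC (horizontal axis) of each tested gene in 6 lists (rows), with 1 panel per miRNA, filled points for an adjusted p under 0.05, black bars for list medians and a dashed line for the median of the 63 histone cluster genes. With miR-629-3p the S phase median (-0.33) lies beside the dashed line (-0.34), and with miR-874-3p it lies to its right (-0.13 against -0.35).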

How the data were processed

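RNA of 8 samples (100 ng per label) was hybridised on SurePrint G3 arrays, and Agilent Feature Extraction 11.5.1.1, per the labels, gave the deposited processed intensity (background-subtracted) of each spot. The deposited log2 values are those intensities minus each array's 75th percentile: set against the scanner values, 100% of probes agreed within 0.05 after 1 offset per array (-0.05 to 0.00), with column medians from -3.68 to -3.36, and the direction is that of the signal. Coordinates are hg19, per the file headers. From the spots, log2 processed intensities were averaged per probe without outlier spots and the 75th percentile of each array was subtracted. Probes that Feature Extraction marked well above background on each array of 1 group or more were kept (27303), and the brightest probe stood for each gene name (21283 genes). All arrays entered 1 limma 3.58.1 fit (R 4.3.3) without covariates, with Benjamini-Hochberg adjustment over all genes, and a probe-level fit served for probes other than the brightest. An alternative rule was an unadjusted p under 0.05 with a 2-fold change. The fit was also run on simulated data with independent noise for each gene. That simulation held no effect of the slide row and no shift shared by an array, so it does not bear on these. Genes named in the text are those called in a comparison with NC, the brightest of each histone type, those whose probes disagree, and list genes at an adjusted p under 0.05 and 2-fold; other list genes named are those at an adjusted p under 0.05 or central to the list, and 1 list gene that the rule names is not reported here. The members and gene lists were chosen with earlier results of these data known. Sequence matching used Python 3.11.15. The labels and the study's text differ on time, kit and cell name.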

Additional observations from a re-analysis of the deposited data

How the results depend on the processing

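The numbers of histone genes past a threshold depended on the processing. Their median log2 fold changes (-0.34, 0.04 and -0.35) moved by less than 0.0852, the SD between replicate arrays, under every alternative that kept all arrays. The 19 genes that fell with miR-629-3p at an adjusted p under 0.05 became 32 with normexp background correction, 30 among probes well above background on all 8 arrays and 36 with a trended variance, but 6 with a replicate block and 0 with the methods' t-test. The 2 that rose with miR-210-3p became 1 with quantile normalization or median centring, and 0 without the detection filter, with the replicate block, with the t-test or with only the 2 groups in the fit. The 0 of miR-874-3p became 1 with normexp and 10 with the trend. The 25 across the 4 groups became 50 with normexp, 46 with probes well above background on all arrays, 53 with the trend, 11 without the filter, 5 with the replicate block and 9 with ANOVA. With every probe counted, the 2-fold rule gave 2, 1 and 1 calls in place of 0. Leaving out 1 array gave 0 to 24, 0 to 2 and 0 to 4 adjusted calls, 0 to 35 across the groups, 0 to 1, 0 to 1 and 0 to 2 calls at 2-fold, and medians from -0.40 to -0.26, from -0.02 to 0.12 and from -0.44 to -0.26 (in the order miR-629-3p, then miR-210-3p, then miR-874-3p). The genes lower at an unadjusted p under 0.05 fell from 36 to 17 with miR-629-3p and from 44 to 9 with miR-874-3p by the t-test, and to 29 for miR-874-3p with only the 2 groups. The HIST1H4H distal probe reversed with miR-210-3p, to -0.21, when signals were raised to the dimmest detected one. Over all settings, those without 1 array included, its change ran from 0.48 to 3.79 with miR-629-3p and from 0.03 to 2.43 with miR-874-3p. The lowest miR-629-3p value is under the 2.74-fold bound (log2 1.46) of the main processing. With miR-210-3p the 1 gene lower at that p became 0 or 2 under several settings. The cause of these changes was not tested. The labels number the replicates but do not say that a number marks a shared culture. Over all genes, same-numbered arrays did not deviate together (correlations from -0.11 to 0.03 over 6 pairs of groups). Whether the fit with or without the replicate block is the better one was not tested. Genes whose level is near background, HIST1H4H's distal probe among them, have only bounds.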
